A study of Sus scrofa with 63 samples.

Results

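Lesions that had closed over with new epidermis were compared with lesions that were still open, among pig skin sites biopsied 168, 336 and 514 h after sulfur mustard. The 9 arrays of exposed sites at these times, of 63 arrays in the series, were split by the histology score for complete re-epithelialization in the sample labels. The score was 1 in 4 arrays (replicate 3 at 336 h and all 3 replicates at 514 h) and 0 in 5 arrays (all 3 replicates at 168 h and replicates 1 and 2 at 336 h). The label asks whether re-epithelialization was complete, so a lesion called open here (score 0) may have been covered in part. No expression value was used to make the groups. Score and time were largely confounded: every lesion of 168 h was open and every lesion of 514 h was closed, so only the 336 h lesions, 1 closed and 2 open, differed in score at the same time.

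Sulfur mustard is an alkylating blister agent. Female Yorkshire crossbred pigs received 400 µL of neat agent through a template for 8 min, which gave 3 cm lesions on the ventral abdomen. Each pig also carried unexposed control sites, and sham pigs were prepared in the same way with no agent. Punch biopsies of 8 mm sampled the whole skin. For these 3 times there were also 9 control arrays and 3 sham arrays, which carried no agent. The exposed and control arrays of a time came from the same 3 animals, and each time had its own animals. The labels do not say whether a replicate number marks an animal. At each time, however, the exposed and control arrays numbered 3 shared a sacrifice day apart from the others. This ties that number to the same animal in both. The last time is 514 h in the sample labels, while the text on the design counts days that come to slightly fewer hours.

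A wound closes when keratinocytes at its edge and in hair follicle remnants loosen their junctions, crawl over the exposed dermis and divide. Migrating keratinocytes on dermal collagen make collagenase-1, encoded by MMP1, and the urokinase system encoded in part by PLAU dissolves the fibrin ahead of them. Once the sheet is continuous, the cells rebuild desmosomes and tight junctions and resume differentiation, with the keratins KRT1 and KRT10 made above the basal layer and cornified envelope proteins above those, while leukocytes leave the dermis.

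Histology gave the setting. On the scale used here a site scores 1 for each feature that looks as in normal skin, up to 3 for collagen orientation, and normal skin totals 13, the total of all 9 control sites. The total was 6, 6 and 9 in the open lesions of 168 h, 5 and 6 in the open lesions of 336 h, 10 in the closed lesion of 336 h and 6, 7 and 9 in those of 514 h. The totals of open and closed lesions overlapped, with a mean difference of 1.6 that was within the spread (two-sided exact permutation test, p = 0.198, adjusted over 11 scores p = 0.378; the smallest p that 5 against 4 arrays allow is 0.0159). Inflammatory cells scored as abnormal in all 5 open lesions and in 1 of 4 closed lesions (exact permutation p = 0.0476, adjusted p = 0.378). Epidermal hyperplasia followed time and not closure: it was scored as absent in the 3 lesions of 168 h and as present in all 6 of 336 and 514 h, both open lesions of 336 h included.

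Several technical measures varied between these biopsies. The mean log2 level of 26 skeletal muscle genes was 7.29, 7.28 and 7.31 in the open lesions of 168 h, 11.15 and 9.00 in those of 336 h, 7.77 in the closed lesion of 336 h and 9.98, 7.34 and 7.20 in those of 514 h, and it ranged from 7.32 to 12.93 over the 9 controls. Open and closed lesions overlapped in it (exact permutation p = 0.714, adjusted over 4 measures p = 0.754). The 3 prime minus 5 prime difference of the actin control probe sets, a measure of RNA integrity, was higher in all 4 closed lesions (0.961 to 1.5) than in the 5 open ones (0.447 to 0.943; exact permutation p = 0.0159, the smallest possible, adjusted p = 0.0635), and in the controls it rose from 0.261 to 0.775 at 168 h to 1.51 to 1.86 at 514 h. The same difference did not separate the lesions for GAPDH (closed minus open -0.047, exact permutation p = 0.730). Nor did it for EF1A (-0.0125, exact permutation p = 0.754). Arrays of the 3 times were processed in 3 separate periods, so time and period cannot be told apart. At 336 h the closed lesion and the control of the same number had another sacrifice day than the other exposed and control arrays of that time. The closed lesion also had another RNA extraction and in vitro transcription day than the open ones. The part of muscle, RNA integrity and processing day in the differences below was not tested beyond the values given.

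The first comparison asked which genes differed between the 4 closed and 5 open lesions. Of 23999 probe sets 38 (0.158%) passed an adjusted p of 0.05 in limma, 29 higher (0.121%) and 9 lower (0.0375%) in closed lesions, and 5270 (22%) passed an unadjusted p of 0.05. The same split of the 9 control arrays by time and number, which have no lesion, called 1 probe set (0.00417%), yet 5669 (23.6%) passed unadjusted. Because uninjured skin also differed along this split, the response was tested too, that is the difference from the controls of the same time, closed minus open. The response called 461 probe sets (1.92%), 334 higher (1.39%) and 127 lower (0.529%), and 24 (0.1%) passed in both comparisons with the same sign, 0.075% higher and 0.025% lower. The values of the 4 closed and 5 open lesions did not overlap for 1975 probe sets (8.23%; 4.26% higher and 3.97% lower in closed lesions). Leaving out 1 array changed the first count to between 3 and 955: it was 3 or 4 without any one lesion of 168 or 514 h, 542 and 613 without open lesion 1 or 2 of 336 h, and 955 without the closed lesion of 336 h. For the response the count ran from 152 without closed lesion 2 of 514 h to 924 without the closed lesion of 336 h. When blocked by replicate number the response called 193. Fewer cells of a type and less RNA per cell cannot be told apart in whole biopsies.

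Among the named genes, 7 rose and 3 fell in closed against open lesions in both comparisons. In the 9 exposed arrays 0 of these 10 were called when any 1 lesion of 168 or 514 h was left out, and all 10 when any 1 lesion of 336 h was; in the response 8 to 10 were called with 1 array left out and 7 when blocked by replicate number. The largest was MMP1, interstitial collagenase, which cuts fibrillar collagen. Its log2 signal was 11.89, 12.22 and 10.25 in the open lesions of 168 h, 11.42 and 10.77 in those of 336 h, 8.34 in the closed lesion of 336 h and 7.58, 8.02 and 5.74 in those of 514 h, against a control mean of 5.67 ± 0.59 (SD, n = 9). The open lesions were all high at both times, the closed lesions were all lower than the lowest open one, and 1 closed lesion was within the range of the controls. MMP1 fell by 3.89 ± 0.55 (SE), 14.8-fold, between open and closed lesions (limma adjusted p = 0.0321) and by 3.38 ± 0.56 in the response (adjusted p = 0.00975). It stayed above control in closed lesions by 2.03 ± 0.45 (adjusted p = 0.0108).

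PLAU, the urokinase-type plasminogen activator, had the same pattern on a smaller scale. Its log2 signal was 12.07, 12.27 and 12.09 in the open lesions of 168 h, 11.68 and 11.74 in those of 336 h, 11.03 in the closed lesion of 336 h and 11.05, 11.03 and 10.78 in those of 514 h. No closed value reached an open one, and the closed lesion of 336 h was level with those of 514 h. PLAU fell by 1.00 ± 0.14 (adjusted p = 0.0298), and by 0.90 ± 0.16 in the response (adjusted p = 0.0112). SAMHD1, a nucleotide-cleaving enzyme abundant in myeloid cells, was 11.03 to 11.24 in the 5 open lesions, 10.53 in the closed lesion of 336 h and 9.86, 10.34 and 9.89 in those of 514 h. Its closed lesions were at the level of control (closed minus control -0.01 ± 0.13) while its open lesions were above it by 0.75 ± 0.12 (adjusted p = 0.000363), and it fell by 0.94 ± 0.14 from open to closed (adjusted p = 0.0458; response -0.76 ± 0.17, adjusted p = 0.0334).

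**Figure D1:**
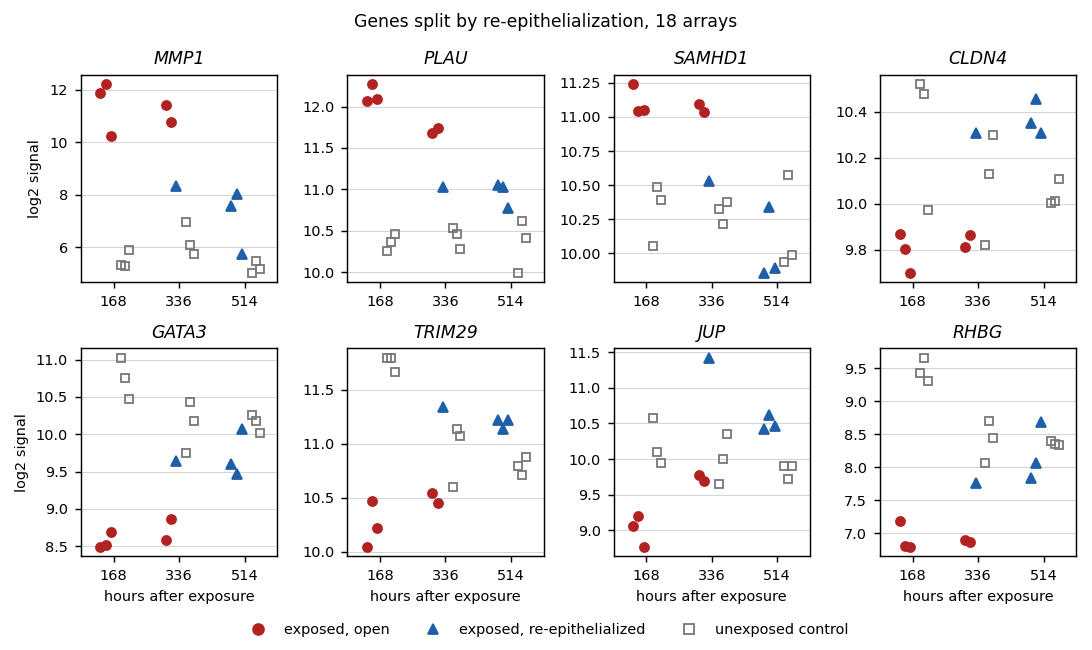
Log2 signal (vertical axis, a separate scale in each panel) of 8 genes in single arrays at 168, 336 and 514 h, with open lesions as red circles, re-epithelialized lesions as blue triangles and unexposed controls as grey squares. In each panel the closed lesion of 336 h lies apart from the 2 open lesions of 336 h and on the side of the closed lesions of 514 h. For MMP1 it is 8.34 against 11.42 and 10.77. The 8 genes were chosen for closed and open values that differ over these same arrays, so this position follows from the choice and is no result.

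Genes of epithelial identity and cell contact moved the other way. GATA3, a transcription factor of the epidermis and hair follicle, had a log2 signal of 8.49, 8.51 and 8.69 in the open lesions of 168 h, 8.59 and 8.86 in those of 336 h, 9.64 in the closed lesion of 336 h and 9.61, 9.47 and 10.07 in those of 514 h. Open lesions were low at both times and closed lesions high at both, 3 of the 4 still below every control (control mean 10.34 ± 0.38, SD, n = 9). GATA3 rose by 1.07 ± 0.13, 2.09-fold (adjusted p = 0.0294; response 1.30 ± 0.23, adjusted p = 0.0112). TRIM29, a protein of keratin-rich squamous epithelia, was 10.05, 10.47 and 10.22, then 10.54 and 10.45 in open lesions, and 11.34, 11.22, 11.14 and 11.22 in closed ones. The 4 closed values lay close together at both times with no overlap with the open ones, and TRIM29 rose by 0.88 ± 0.11 (adjusted p = 0.0294; response 1.33 ± 0.22, adjusted p = 0.00975). CLDN4, a tight junction claudin, was 9.70 to 9.87 in the open lesions and 10.31 to 10.46 in the closed ones, a rise of 0.55 ± 0.08 (adjusted p = 0.0347; response 0.66 ± 0.14, adjusted p = 0.0301).

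The other risers of both comparisons were RORA, USP2, RHBG and HOMER2. RORA, a nuclear receptor of the clock and of epithelial differentiation, was 6.77, 7.02 and 6.45 in the open lesions of 168 h, 7.34 and 7.16 in those of 336 h, 8.00 in the closed lesion of 336 h and 8.71, 8.87 and 9.31 in those of 514 h. RORA also rose with time within open lesions once the control was subtracted (1.36 ± 0.30, limma adjusted p = 0.0106). Much of that came from the control mean, which fell from 9.95 at 168 h to 9.10 at 336 h. The open mean went from 6.75 to 7.25. For RORA the closed minus open difference was 1.77 ± 0.26 (limma adjusted p = 0.0347) and the response 2.15 ± 0.40 (limma adjusted p = 0.0162). Along the same split the controls differed by -0.82 for RORA, -0.65 for RHBG, -0.53 for TRIM29 and -0.08 for CLDN4. The response of these genes holds that difference too. RHBG, an epithelial ammonium transporter, was 6.80 to 7.19 in open lesions and 7.76 to 8.69 in closed ones, and rose by 1.18 ± 0.18 (adjusted p = 0.0463). USP2, a deubiquitinase, rose by 1.43 ± 0.21 (adjusted p = 0.0347), and HOMER2, a scaffold protein, by 1.03 ± 0.16 (adjusted p = 0.0477). Of 10 genes called in both comparisons none was called when log2 hours entered either fit as a covariate, with the sign of all 10 kept, and 0 were called against the 3 sham arrays.

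Beyond these 10, the 8 largest rises and 12 largest falls were taken among genes that passed in the response and whose closed and open values did not overlap. Their adjusted p in the 9 exposed arrays ran from 0.0506 to 0.135, so none passed there. Having no overlap was part of how they were chosen and is not a result. Among the 8 risers were 2 chemokines that epithelial cells make to attract lymphocytes. CCL27 was 8.47, 9.23 and 9.02 in the open lesions of 168 h, 10.67 and 10.00 in those of 336 h, 11.03 in the closed lesion of 336 h and 12.39, 12.14 and 11.71 in those of 514 h, a rise of 1.99 ± 0.44 in the response (adjusted p = 0.0337). The closed lesions of 514 h were above the control mean of 10.98. CCL28 was 6.84 to 7.88 in open lesions and 8.59, 9.68, 9.18 and 10.27 in closed ones, a rise of 1.54 ± 0.30 (adjusted p = 0.0207).

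The remaining risers had varied roles. SULT1E1, the oestrogen sulfotransferase, climbed in steps, from 5.49, 5.28 and 5.06 at 168 h through 6.81 and 6.97 in the open lesions of 336 h to 8.12 in the closed one and 8.38, 8.55 and 9.17 at 514 h, and its response rose by 2.98 ± 0.53 (adjusted p = 0.0122). CALML5, a calcium-binding protein of differentiating keratinocytes, rose by 2.87 ± 0.68 (adjusted p = 0.0422), HSPA2, a chaperone of the 70 kDa heat shock family, by 1.97 ± 0.32 (adjusted p = 0.00897), and JUP, plakoglobin of desmosomes and adherens junctions, by 1.67 ± 0.24 (adjusted p = 0.00589). RAB27B, which moves secretory vesicles and melanosomes, and TPPP3, a tubulin-binding protein, both rose by 1.08 in the response.

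Several of the 12 fallers are genes of leukocytes. PLEK, pleckstrin of platelets and leukocytes, was 9.65, 9.81 and 8.38 in the open lesions of 168 h, 8.37 and 7.23 in those of 336 h, 6.64 in the closed lesion of 336 h and 6.07, 6.39 and 6.01 in those of 514 h, where the control mean was 6.09. It fell by 2.17 ± 0.46 (adjusted p = 0.0304). CCR1, a chemokine receptor of monocytes and neutrophils, was 8.38 to 10.43 in open and 7.33 to 7.68 in closed lesions and fell by 1.93 ± 0.42 (adjusted p = 0.0308). SPP1, osteopontin, an adhesion protein secreted by wound macrophages among other cells, was 11.51 to 12.72 in open and 9.83 to 11.24 in closed lesions and fell by 2.16 ± 0.44 (adjusted p = 0.0259).

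Smaller falls passed for CD53, a leukocyte tetraspanin (-1.48 ± 0.35, adjusted p = 0.0441), CHI3L1, a secreted chitinase-like protein (-1.37 ± 0.28, adjusted p = 0.0262), SRGN, serglycin of secretory granules (-1.09 ± 0.26, adjusted p = 0.0408), and ALOX5AP, needed for leukotriene synthesis (-1.51 ± 0.29, adjusted p = 0.0194). ALOX5AP was 8.75 in the closed lesion of 336 h, and the control of the same number was as low, at 8.73 against 10.20 and 10.11 in the other controls of that time. ADM, the vasodilator adrenomedullin, fell by 0.83 ± 0.17 (adjusted p = 0.0291), and CLU, the secreted chaperone clusterin, by 0.85 ± 0.21 (adjusted p = 0.0470) from a level that remained above control in closed lesions by 1.25 ± 0.16 (adjusted p = 0.00084). PTGFR, the prostaglandin F receptor, took another course: open lesions were at control level (0.07 ± 0.15) and closed lesions below it (-0.93 ± 0.17, adjusted p = 0.00365). MOV10 and LOC100526084 fell by 0.72 and 0.98, and of these 20 genes the response called 6 when blocked by replicate number, 0 with log2 hours by exposure as covariate, 0 against sham and 7 to 19 with 1 array left out (7 without closed lesion 2 or 3 of 514 h). With only the arrays whose muscle score was under 8.5, an alternative added after seeing the data, it called 15 of the 20 and 8 of the 10 above.

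**Figure D2:**
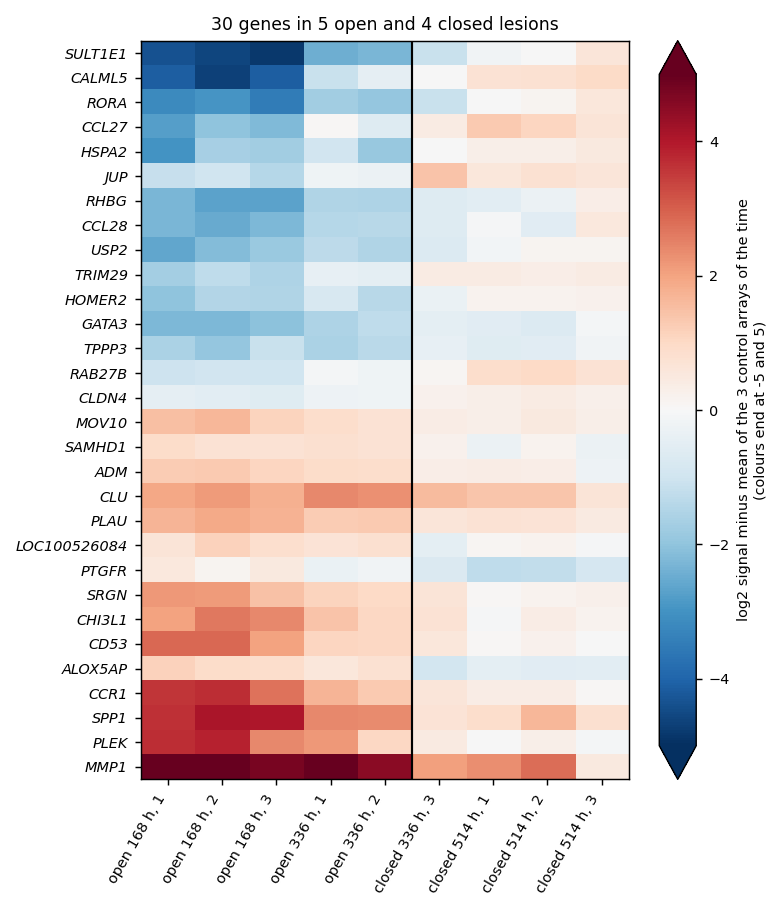
Log2 signal minus the mean of the 3 control arrays of the same time (colour, blue below and red above 0) for 30 genes (vertical) in the 9 exposed arrays (horizontal), sorted by the response difference from SULT1E1 to MMP1, with a line between 5 open and 4 closed lesions. Open columns are blue for the upper genes and red for most of the lower ones, strongest at 168 h, and closed columns are pale except for MMP1, CLU, JUP and a few others. The genes were chosen for a difference between open and closed lesions over these arrays, so that contrast is no result.

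Several keratinocyte differentiation genes had already risen in lesions not yet scored as completely re-epithelialized. Of the 11 measured, 5 rose between 168 and 336 h in open lesions and 0 fell. Among all 6765 genes with a symbol 58 rose and 61 fell. How far new epidermis covered those lesions is not given. KRT1, the suprabasal keratin, had a log2 signal of 7.97, 8.67 and 10.22 in the open lesions of 168 h, 13.84 and 13.89 in the open lesions of 336 h, 14.17 in the closed lesion of 336 h and 14.27, 14.27 and 14.30 in those of 514 h, with a control mean of 14.15 ± 0.07 (SD, n = 9). The open lesions of 336 h were far above those of 168 h. All KRT1 values from 336 h on lay near the top of the range of all values, where a remaining gap between open and closed lesions may not be resolved. Between 168 and 336 h within open lesions, control subtracted, KRT1 rose by 5.00 ± 0.41 (adjusted p = 1.64e-10), whereas the closed minus open difference at 336 h was 0.30 ± 0.41 and the difference over all 9 arrays 3.33 ± 1.19 (adjusted p = 0.153). KRT10, its partner, rose by 3.81 ± 0.38 between those times in open lesions (adjusted p = 1.75e-08).

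CALML5 and SERPINB7, an epidermal serpin, followed the same course. CALML5 was 9.22, 8.66 and 9.20 in the open lesions of 168 h, 11.43 and 12.07 in those of 336 h, 12.50 in the closed lesion of 336 h and 13.19, 13.23 and 13.41 in those of 514 h. It rose by 3.53 ± 0.47 between 168 and 336 h in open lesions (adjusted p = 2.13e-05) and SERPINB7 by 3.29 ± 0.53 (adjusted p = 0.000338). KRT2, the keratin of the uppermost living layers, trailed these: its mean was 7.35 in the open lesions of 168 h and 8.74 in those of 336 h, against 9.09 in the closed lesion of 336 h and a mean of 11.71 at 514 h, and its 168 to 336 h change of 1.75 did not pass. Involucrin, IVL, a precursor of the cornified envelope, was not depleted: open lesions were 0.37 ± 0.26 from control and closed lesions above it by 1.64 ± 0.29 (adjusted p = 0.00321).

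Other genes fell over the same interval in lesions not yet scored as completely re-epithelialized. Between 168 and 336 h in open lesions TNC, tenascin-C of provisional wound matrix, fell by 2.48 ± 0.60 (adjusted p = 0.0292), PTX3, a soluble pattern recognition protein, by 2.53 ± 0.53 (adjusted p = 0.00813), and SLC2A3, a glucose transporter, by 2.19 ± 0.55 (adjusted p = 0.0336). TNC and SLC2A3 each kept the call in 4 of 11 fits with 1 array left out. HPD and TAT, both enzymes of tyrosine breakdown, fell by 3.93 ± 0.81 (adjusted p = 0.00686) and 1.93 ± 0.42 (adjusted p = 0.0096). LOC396867 rose by 4.63 ± 0.50. That comparison called 269 probe sets (1.12%), 125 higher (0.521%) and 144 lower, and between 79 and 359 when 1 array was left out, the lowest without open lesion 2 of 336 h.

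**Figure D3:**
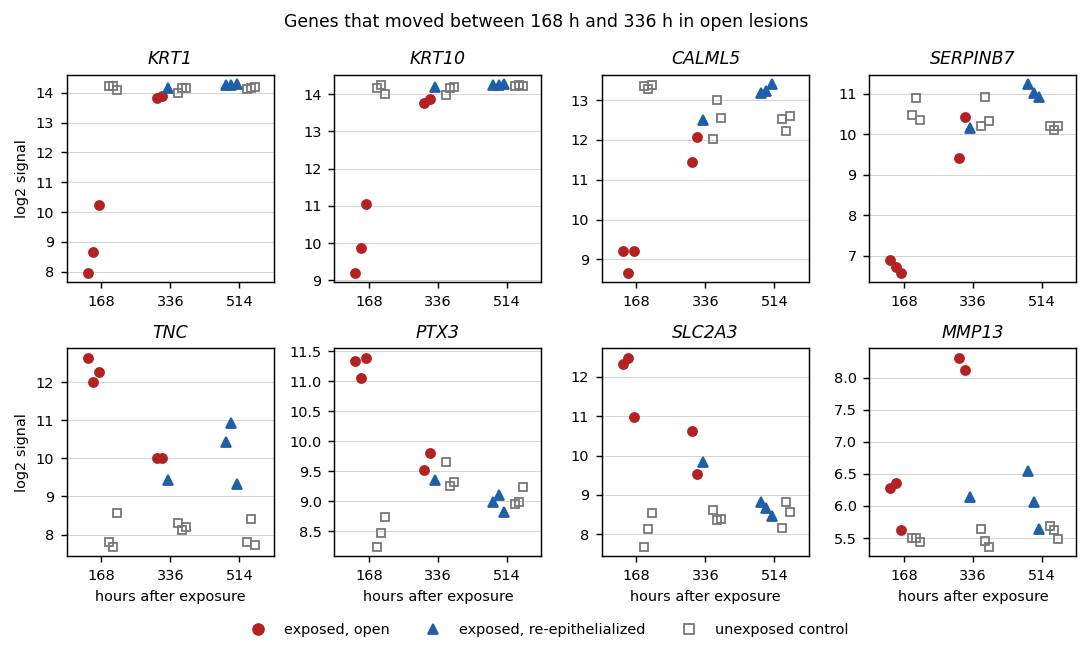
Log2 signal (vertical axis, a separate scale in each panel) of 8 genes in single arrays at 168, 336 and 514 h, with open lesions as red circles, re-epithelialized lesions as blue triangles and controls as grey squares. For KRT1 and KRT10 the open lesions of 336 h lie near the closed one and far from those of 168 h; in the MMP13 panel the open lesions of 336 h, at 8.31 and 8.12, stand above all other arrays.

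These courses can be put as a distance from the open mean of 168 h (0%) to the closed mean of 514 h (100%). The open lesions of 336 h had gone 64.1% for CALML5, 8.31% for MMP1, 4.42% for SAMHD1, 8.06% for CLDN4 and 13.9% for GATA3, and with the control mean of each time subtracted 68.8% for CALML5, 27.7% for MMP1, 4.54% for SAMHD1, 33.2% for CLDN4 and 45.4% for GATA3. The closed lesion of 336 h had gone 71.6% for MMP1, 88.9% for CLDN4 and 93.1% for GATA3. MMP1, SAMHD1, CLDN4 and GATA3 were chosen for differing between closed and open lesions over these same arrays, so their positions at 336 h follow in part from the choice and are no test. CALML5 was named both for that difference and as a leading rise from 168 to 336 h in open lesions. Its position at 336 h therefore follows in part from the choice too, and its contrast with the others is no result. Over the 386 genes whose open 168 h and closed 514 h means differed by at least 1 on the log2 scale, the median was 74.9% for the open lesions and 70.1% for the closed lesion of 336 h, and the closed lesion was farther along for 185 of them (47.9%). With the control mean of each time subtracted, 382 genes differed as much, the medians were 59.6% and 67.8%, and the closed lesion was farther along for 237 (62.0%). The whole profile of the closed lesion of 336 h was compared with no control subtracted. The SD of its difference over probe sets was 0.336 from the 514 h mean and 0.323 from the open 336 h mean. From the open 168 h mean it was 0.483. The arrays of 336 h share a processing period, and the means rest on unlike numbers of arrays. The values of 0.336 and 0.323 are therefore not ranked. These are descriptions of 1 closed array.

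The 336 h arrays alone allow closure to be compared at 1 time. The closed lesion differed from the 2 open ones at 161 probe sets (0.671%), 107 higher and 54 lower (7.3% at an unadjusted p of 0.05), in the fit of all 63 arrays, where the lone closed array is taken to vary like the other groups. The control of the same number against the other 2 controls called 0 probe sets (0%), and 392 (1.63%) passed unadjusted. This control split follows the sacrifice day of the lesions. It does not follow their RNA extraction and in vitro transcription days, because control 2 shared those days with control 3. The control split therefore cannot show what those days did, and their part in the 161 calls was not tested. With the controls of the same number subtracted 3 were called, all 3 among the 161, and without open lesion 1 or 2 the count was 63 or 69. The muscle score was 11.15 and 9.00 in these open lesions and 7.77 in the closed one, and its part in these calls was not tested.

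JUP was called both at 336 h and in the response. Its log2 signal was 9.06, 9.20 and 8.77 in the open lesions of 168 h, 9.77 and 9.69 in those of 336 h, 11.42 in the closed lesion of 336 h and 10.42, 10.62 and 10.46 in those of 514 h. The closed lesion of 336 h was the highest of all 18 exposed and control arrays of these times, and the difference at 336 h was 1.69 ± 0.30 (adjusted p = 0.00196). It was 1.16 with the controls of the same number subtracted and no longer passed (limma adjusted p = 1). Against control JUP was lower in open lesions (-0.82 ± 0.18, adjusted p = 0.00305) and higher in closed ones (0.85 ± 0.19, adjusted p = 0.0127). MMP1 differed by -2.75 ± 0.75 at 336 h, with an adjusted p of 0.0816.

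MMP13, collagenase-3, was the clearest faller at 336 h. It was 8.31 and 8.12 in the open lesions of that time, 6.14 in the closed one, 6.27, 6.36 and 5.62 in the open lesions of 168 h and 6.54, 6.06 and 5.63 in the closed lesions of 514 h, with a control mean of 5.52 ± 0.10 (SD, n = 9). The open lesions of 336 h were above all other exposed and control arrays of these times. The difference at 336 h was -2.08 ± 0.20 (adjusted p = 4.41e-08), and it passed in each alternative run at that time, with the highest adjusted p at 0.0181. S100A12, a calgranulin of neutrophils, was 9.86 and 8.96 in the open lesions and 7.21 in the closed one, which is -2.20 ± 0.43 (adjusted p = 0.00465), but the closed lesions of 514 h were at 8.88 to 9.76, as high as the open ones. With the controls of the same number subtracted the S100A12 difference was -1.35 and did not pass (limma adjusted p = 1). TNFAIP1, C6H18orf21 and LOC100517973 were also lower in the closed lesion, with differences of -2.53, -1.12 and -0.89, but the control of the same number differed from the other 2 controls by -2.06, -0.94 and -0.65.

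Some risers at 336 h were high in that 1 biopsy and lower in the closed lesions of 514 h. ATF3, a stress-induced transcription factor, was 7.81 and 7.93 in the open lesions of 336 h and 9.85 in the closed one, but 7.17, 6.70 and 7.11 in the closed lesions of 514 h, so it rose by 1.98 ± 0.49 at 336 h (adjusted p = 0.0419) and fell by 3.21 ± 0.56 from there to 514 h (adjusted p = 0.00327). LIF, a cytokine of the interleukin-6 family, was 6.51 and 6.29 against 7.75. NPG4, a protegrin of pig neutrophils, was 8.48 and 6.63 against 9.56 and then 6.96 to 7.59, with PR39 and PGLYRP1, also neutrophil antimicrobial genes, at 7.65 and 7.69 in this lesion and 6.52 to 6.88 at 514 h. NPG4 and PR39 belong to the cathelicidin family, whose members share near-identical stretches, so their probe sets may not separate them. HPD was 5.62 and 4.96 against 9.13, a rise of 3.84 ± 0.81 (adjusted p = 0.0102), and 7.03, 9.17 and 7.06 at 514 h, a range that holds the closed lesion of 336 h. With the controls of the same number subtracted the differences at 336 h were 2.91 for HPD, 1.83 for ATF3, 1.26 for LIF and 2.20 for NPG4, and none of these passed (limma adjusted p = 1, 1, 1 and 0.237). From 336 to 514 h closed lesions changed at 29 probe sets (0.121%; 0.0625% higher, 0.0583% lower; 5.15% unadjusted), and the 18 late arrays alone called 3, of which 1 was among the 29.

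Against their own controls, open lesions differed at 5411 probe sets (22.5%; 11.7% higher, 10.8% lower) and closed lesions at 1993 (8.3%; 4.99% higher, 3.32% lower). The count for closed lesions was 933 to 2105 when 1 array was left out, the lowest without closed lesion 2 of 514 h. Both comparisons share the same controls, so their values are set side by side and their overlap is not read. Of the 6765 genes with a symbol, 1217 rose and 770 fell in open lesions, and 497 rose and 250 fell in closed ones. These shares are the background for the list counts below.

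Of 11 measured genes of the differentiated keratinocyte, 9 fell in open lesions with a median of -1.98, and 0 fell and 2 rose (IVL and KLK7) in closed lesions with a median of -0.25. The response called 2 of them, CALML5 and GATA3, both up, against 105 of all 6765 genes with a symbol. At an unadjusted p of 0.05 in limma all 11 passed in the response, where 17.7% of all probe sets did. Of 13 epithelial junction genes 5 fell and 1 rose in open lesions, while 4 rose and 0 fell in closed ones: CDH1 (E-cadherin, 0.47), EPCAM (0.65), GJA1 (connexin 43, 0.37) and JUP. Few basal keratinocyte genes passed: DST, which anchors hemidesmosomes to keratin, was among the 2 of 6 genes that fell in open lesions and the 1 that fell in closed lesions, and COL7A1, the anchoring fibril collagen, rose between 168 and 336 h in open lesions (1.55 ± 0.36, adjusted p = 0.0195) with no call at 336 h. Activated keratinocyte genes were raised in both, 8 of 11 in open and 5 of 11 in closed lesions, with S100A9 above control by 4.49 and 3.06.

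Many genes of inflammation were above control in open lesions. The response, which tests the difference between closed and open lesions, called few of them at an adjusted p of 0.05. Among all 6765 genes with a symbol, 1217 rose in open and 497 in closed lesions. Of 34 cytokine, chemokine and adhesion genes 22 rose in open and 5 in closed lesions, with medians of 1.13 and 0.32, and the 5 were CXCL8, CCL8, IL6, PTGES and SELE. The response called 4 of the 34: CCL28 was higher, and CCR1, SELP (P-selectin) and SPP1 were lower. Its median over the 34 was -0.63, and 22 passed an unadjusted p of 0.05 in limma, where 17.7% of all probe sets did. CXCL8, the main neutrophil attractant, was 12.42, 12.29 and 11.25 in the open lesions of 168 h, 12.10 and 10.22 in those of 336 h, 9.80 in the closed lesion of 336 h and 6.34, 7.20 and 6.67 in those of 514 h. The closed lesion of 336 h was next to the lower open lesion of its time. For CXCL8 the difference over 9 arrays, -4.15 ± 0.70, did not pass (limma adjusted p = 0.0517). Nor did its response, -2.71 ± 0.85 (limma adjusted p = 0.108). Control 1 of 336 h had CXCL8 at 8.80, against 5.60 and 4.93 in the other controls of that time. Of 26 neutrophil and macrophage genes 21 rose in open and 3 in closed lesions (ARG1, GPNMB and LAPTM5), and limma called 0 of them in the response (18 at an unadjusted p of 0.05). ARG1, arginase-1, ranged from 9.84 to 12.45 in open lesions and was 7.40, 9.97, 9.98 and 6.33 in closed ones, so the groups overlapped. Over the 26 genes the mean level was 9.63 in control 2 of 514 h, against 8.93 and 9.14 in the other controls of that time.

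Genes of immune recognition were counted in the same way, beside 1217 of all 6765 genes with a symbol that rose in open and 497 in closed lesions. Because few of all genes rose in closed lesions, a count of 0 or 1 there is not read as a result about a list. Of 23 interferon-stimulated genes 15 rose in open and 0 in closed lesions, and of 23 antigen presentation genes 13 and 0. Of 17 complement genes 12 and 1 (CLU) rose, and of 24 lymphocyte genes 9 and 1. The mean level of the interferon list overlapped between open (8.49 to 9.55) and closed lesions (8.37 to 9.34). It ran from 8.14 to 9.31 over the 9 controls. The response called 0 of the antigen presentation genes in limma (12 at an unadjusted p of 0.05), 1 complement gene (CLU) and 1 lymphocyte gene (LTB, lymphotoxin beta), both lower in closed lesions. It called 2 interferon genes, also lower: UBD, a ubiquitin-like protein (-1.26 ± 0.25, adjusted p = 0.0204), and STAT2 (-0.56). The lymphocyte gene raised in closed lesions was JCHAIN, the joining chain of secreted immunoglobulins made by plasma cells. JCHAIN was 10.52, 9.50 and 8.16 in the open lesions of 168 h, 11.16 and 11.79 in those of 336 h, 11.88 in the closed lesion of 336 h and 11.88, 12.42 and 11.85 in those of 514 h, above control by 1.95 ± 0.48 in open and 2.41 ± 0.53 in closed lesions. It was high in all lesions from 336 h on, and its response difference was 0.46 ± 0.66 (limma adjusted p = 0.771). Control 2 of 514 h had JCHAIN at 11.56, against 8.28 and 9.43 in the other controls of that time. Its mean level was 7.79 over the lymphocyte list (others 7.03 and 7.23) and 10.68 over the antigen presentation list (others 10.11 and 10.36). This control enters the values against which the closed lesions were set.

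**Figure D4:**
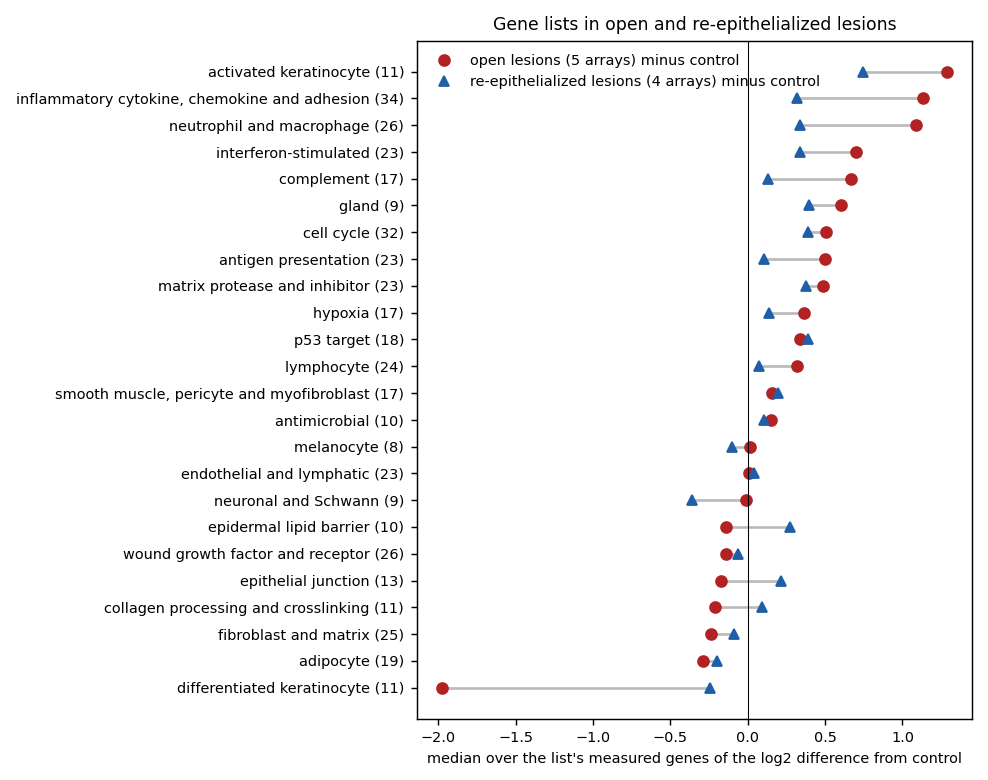
Median log2 difference from control (horizontal axis) over the measured genes of each list (number in brackets), for open lesions (red circles, 5 arrays) and re-epithelialized lesions (blue triangles, 4 arrays), both against the same 9 controls. The differentiated keratinocyte list goes from -1.98 in open to -0.25 in closed lesions and the inflammatory list from 1.13 to 0.32, and the cell cycle list from 0.51 to 0.39.

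Some programmes were still away from control after closure. For all 6765 genes with a symbol the counts that rose were 1217 in open and 497 in closed lesions. Of 32 cell cycle genes 27 rose in open and 15 in closed lesions, with medians of 0.51 and 0.39, and limma called 0 in the response (4 at an unadjusted p of 0.05). TYMS, thymidylate synthase, was 9.58 to 10.28 in open and 9.12 to 9.66 in closed lesions against a control mean of 8.29, and RRM2, of ribonucleotide reductase, was above control by 1.26 and 1.22. Of 18 p53 target genes 7 rose in open and 8 in closed lesions. CDKN1A, the cell cycle inhibitor p21, was above control by 1.28 ± 0.13 and 1.00 ± 0.14, and ZMAT3 by 1.54 and 1.02.

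Some dermal genes were below control in both sets. Over all 6765 genes with a symbol, 770 fell and 1217 rose in open lesions, and 250 fell and 497 rose in closed ones. Of 25 fibroblast and matrix genes 13 fell in open and 5 in closed lesions. The 5 were CCDC80, DCN, DPT, MFAP5 and TNXB, where TNXB, tenascin-X of mature dermis, was below control by 1.70 in open and 0.92 in closed lesions. The response called 3, all with a positive closed minus open difference after subtraction of control: COL1A2, a type I collagen chain (1.64), COL5A1 (0.71) and POSTN, periostin (0.51). The signal of COL1A2 itself overlapped between open lesions (9.92 to 12.55) and closed ones (10.81 to 11.76), and its control mean was 11.00 at 514 h against 12.23 over all 9 controls. At 336 h the means of COL1A2 were 10.15 in open lesions and 11.76 in the closed one, and that difference did not pass. Of 23 matrix protease and inhibitor genes 15 rose in open and 6 in closed lesions, among them MMP1, PLAU and MMP14, the membrane collagenase, with nearly equal excess in both (0.60 and 0.55), and the response called 3, MMP1, PLAU and MMP9, all lower.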

How the data were processed

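Skin RNA was measured on 63 Affymetrix Porcine arrays. The authors deposited 1 table of log2 expression values, and per the submitters' processing notes RMA and Partek were used; background and normalization settings are not given in the sources used here. Values ran from 4.05 to 14.54, no depth applies to arrays, and their number limits the precision. Of 24123 probe sets 124 control probe sets were left out. Of these probe sets 10069 had 1 gene symbol in the platform annotation, 198 had several and 13732 were not listed; a gene was read from its probe set of highest mean. Sequences are not printed.

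Groups came from the labelled re-epithelialization score, time and treatment. limma 3.58.1 (R 4.3.3) with eBayes and Benjamini-Hochberg adjustment over 23999 probe sets gave all adjusted p-values: closed against open over the 9 exposed arrays; the response, and each set of lesions against control, in a fit of the 18 exposed and control arrays of these times with a mean per time and an exposure effect for open and for closed lesions; and comparisons of single times in a fit of 63 arrays with a mean per group. Arrays were taken as independent, although exposed and control sites share animals. Single scores were compared by two-sided exact permutation tests. The fits were tested on simulated data. Genes were named from 1 probe set each: up to 15 per direction called in both comparisons, filled with the largest differences among those called in the response with no overlap between groups; the leading members of each list; the largest calls at 336 h and with time; and fixed keratinocyte genes. Other list members named were chosen after their values were seen. The members and gene lists were chosen with earlier results of these data known. The alternatives tried were other normalization, filters, covariates, controls, blocks and arrays left out.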

Additional observations from a re-analysis of the deposited data

Results flagged for a closer look

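Among 158 groups of 4 closed or 5 open lesions (79 measures), 15 had 1 array far from the others of its group by Dixon's criterion. Chance gives this in about 1 in 20 groups, but some of the genes, ATF3, PR39, PGLYRP1 and NPG4 among them, were chosen because the closed lesion of 336 h differed from other lesions, so the count is not set against that rate. The closed lesion of 336 h stood apart in 6 genes of the closed group besides HOMER2: ALOX5AP was 8.75 there against 10.03 to 10.13 in the other closed lesions (the control of the same number was 8.73 against 10.20 and 10.11 in the other controls of 336 h), LTF 11.90 against 10.71 to 10.90, PDPN 11.25 against 10.36 to 10.46, PCK1 9.50 against 8.44 to 8.49, ATF3 9.85 against 6.70 to 7.17 and PR39 7.65 against 6.52 to 6.56. HOMER2 was 10.30 in that lesion against 10.70 to 10.75.

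Closed lesion 3 of 514 h stood apart in HSPA2 (10.86 against 10.66 to 10.69), PLAU (10.78 against 11.03 to 11.05) and CCR1 (7.33 against 7.63 to 7.68). Closed lesion 2 of 514 h did so in JCHAIN (12.42 against 11.85 to 11.88) and TAT (8.55 against 6.10 to 6.46). Among open lesions, replicate 1 of 168 h stood apart in RHBG (7.19 against 6.80 to 6.90) and PGLYRP1 (7.82 against 6.76 to 7.06), and replicate 1 of 336 h in NPG4 (8.48 against 6.63 to 7.07).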

How the results depend on the processing

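Time since injury, processing period and closure are largely the same split here, and 4 against 5 arrays limit the precision. For closed minus open over 9 exposed arrays the count of 38 became 63 without probe sets of mean under 6, 110 with trend and robust eBayes, 16 at a log2 difference of at least 1, 2268 with the muscle score as covariate, 6296 with group means over 63 arrays, 7 with log2 hours as covariate, 8927 without the 336 h arrays, 59 with the mean of a gene's probe sets, 5839 without the 3 arrays of highest muscle score (added after seeing the data), and 3 to 955 with 1 array left out. The response count of 461 became 86 at a log2 difference of at least 1, 193 with the replicate block, 241 with extraction day, 0 with sham arrays as control (limma; 2708 at an unadjusted p under 0.05), 1390 with group means, 15 with log2 hours by exposure, and 152 to 924 with 1 array left out. The control split gave 1 to 2882. At 336 h the count of 161 became 3 less the controls by number with the replicate block, 72 with the 18 late arrays and 63 to 69 with 1 open array left out. From 168 to 336 h in open lesions it was 8589 with control not subtracted and 79 to 359 with 1 array left out, and from 336 to 514 h in closed lesions 3 with the 18 late arrays, 441 with control not subtracted and 22 to 43. Against control it was 933 to 2105 for closed and 4471 to 5598 for open lesions.

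Same-numbered exposed and control arrays deviated together at r over 0.1 in 8 of 9 pairs (0.0897 to 0.688, mean 0.358). No label states that a number marks an animal and 1 pair fell short, so the number was not used as a block in the main comparisons. The sacrifice days nevertheless tie number 3 to the same animal in exposed and control arrays. The pair that fell short was number 3 of 168 h. Whether the other numbers mark animals too was not tested, so the unblocked main counts may leave out a pairing. In the pair that fell short the muscle score was 7.31 in the exposed and 12.93 in the control array. The part of muscle content in these values of r was not tested. With the block the response called 193 probe sets against 461 without it, and 7 of the 10 and 6 of the 20 named genes. The comparisons with control gave 1832 calls for closed and 6134 for open lesions with the block. Leaving out 1 array moved the muscle score difference between -0.97 and 0.35, GAPDH between -0.14 and 0.017, actin between 0.39 and 0.57, EF1A between -0.035 and 0.0077, the inflammatory cell score between 0.67 and 1.0 and hemorrhage between -0.27 and 0.067.

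With log2 hours as covariate the sign turned in the 9 exposed arrays for COL7A1 (-0.74), HMGCS1 (-0.20), SOX9 (0.14), LTF (0.19), SOX10 (0.032), TNC (0.35), LOX (0.36), PLN (-0.027), JCHAIN (-0.066), PDPN (0.048), CDKN1A (0.17), PCK1 (0.56), STMN2 (-0.93), HBB (-0.033), KRT1 (-0.92) and KRT10 (-0.58). With log2 hours by exposure it turned in the response for COL7A1 (-0.93), LTF (0.34), TNC (0.017), SLPI (0.070), PDPN (0.24), CDKN1A (0.17), PCK1 (0.41), STMN2 (-0.96), KRT1 (-0.40) and KRT10 (-0.18). It also turned for COL7A1 against sham (-0.043), LOX with extraction day (-0.00806) and with muscle scores under 8.5 only (-0.27), MYL2 with the replicate block (0.62) and STMN2 without control replicate 1 of 168 h (-0.019, up to 0.727 with another array left out). The cause was not tested.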

Other observations

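Some genes of low oxygen and metabolism were above control in both sets of lesions. Of 17 hypoxia genes 8 rose and 1 fell in open lesions, where 1217 of all 6765 genes with a symbol rose and 770 fell. In closed lesions 6 rose and 1 fell, where 497 of all these genes rose and 250 fell. SLC2A1, the glucose transporter of dividing epithelia, was above control by 1.04 in open and 1.06 in closed lesions, HIF1A, the oxygen-regulated transcription factor, by 0.48 and 0.46, and CA9, carbonic anhydrase 9, by 0.44 and 0.48. VEGFA, the vascular growth factor, was below control by 0.68 in open and 0.51 in closed lesions.

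Some nerve genes were below control in both sets. Of 9 neuronal and Schwann cell genes 4 fell in open and 3 in closed lesions (770 and 250 of all 6765 genes with a symbol did). The 3 in closed lesions were NCAM1, a neural adhesion molecule (-1.23 ± 0.20, limma adjusted p = 0.00181), GAP43, a growth cone protein (-0.75 ± 0.12), and S100B of Schwann cells (-0.58 ± 0.09). TGFB1, a growth factor of repair, was above control by 1.19 in open and 1.00 in closed lesions, and SFN, the epithelial 14-3-3 protein sigma, by 0.81 in closed lesions against -0.05 in open ones, with a response difference of 0.86 ± 0.19 (limma adjusted p = 0.0351).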
